A study of Saccharomyces cerevisiae with 24 samples.

Results

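The culture that was kept at 28 °C for the whole course of a temperature study in baker's yeast, Saccharomyces cerevisiae, is described here, with its 24 h array set against its 7 earlier arrays. The 8 arrays are 1 each at 0, 15, 30 and 60 min and at 2, 4, 8 and 24 h, and they were chosen by the labelled temperature and time from 24 arrays in all. The other arrays of the study belong to cultures moved to 37 °C or to 10 °C and enter no result. All 8 arrays come from the laboratory strain S288C, grown in SD medium, a synthetic minimal medium, at 28 °C to an optical density (OD600) of 1 before time 0 and then left at that temperature. Their RNA was labelled with an Ambion amplification kit. No time was repeated, and the labels do not say whether the 8 samples came from 1 culture or several. Growth and medium composition over time are not analysed here. The comparison asks how far an unshifted culture drifts from its own start over 24 h, and which genes were already moving at 8 h.

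By way of background, yeast in glucose medium ferments glucose to ethanol and holds down the genes for other carbon sources, for respiration and for gluconeogenesis through glucose repression, in which the Snf1 kinase and the repressor Mig1 act in opposition. When glucose runs out the cells pass through the diauxic shift, change to respiring ethanol and acetate, stop dividing and in time enter stationary phase. Ribosome genes and cell cycle genes are known to fall on that path, whereas stress, reserve carbohydrate and respiration genes are known to rise.

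Levels are log2 values per gene, so a difference of 1 is a 2-fold difference. RMA, the summary method, gives every array a like distribution of values, and a change in total RNA per cell is therefore not visible. In such bulk samples fewer cells of a kind and less RNA per cell cannot be told apart. The median of the yeast probe sets lay between 10.69 and 10.75 on the earlier arrays and at 10.75 at 24 h. Probe sets of other species, a measure of background, had medians of 5.02 to 5.09 and 5.10. Across all genes each earlier array correlated with the mean of the other earlier arrays at r = 0.975 (8 h) to 0.998, and the 24 h array with their mean at r = 0.749. The genes share the arrays, so this is a description. Control probe sets also differed at 24 h. The level of 25S ribosomal RNA was 11.62 to 11.98 earlier and 13.30 at 24 h, and that of 18S was 10.32 to 10.80 and 11.55. The 3′ minus 5′ difference of ACT1, a measure of RNA length, was 0.39 to 0.53 earlier and 0.87 at 24 h. That of WBP1 was 1.28 to 1.65 and 2.08, and that of RIP1 moved the other way, from 0.33 to 0.67 down to 0.044. The labelled spike controls stood at 9.02 to 9.66 and 10.04. The part of these differences in the results was not tested.

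At 24 h most genes had changed, in about equal numbers up and down. With limma's moderated test and Benjamini-Hochberg adjustment over 5449 genes, 1935 (35.5%) were called higher and 1934 (35.5%) lower at an adjusted p under 0.05. By at least 2-fold, 1083 (19.9%) were higher and 1076 (19.7%) were lower. At 24 h 4490 of the 5449 genes, called or not, lay outside the range of the 7 earlier arrays. Every called gene was among them, which the test largely fixes, since its error is the spread of those 7 arrays. At least 16-fold changes numbered 46 higher and 30 lower. With so many genes called, the count for any group of genes is read against these shares. Groups of genes are 40 lists by function, and where 5 or fewer genes of a list make up a count they are named, a choice made after their values were seen. A change is the 24 h level minus the mean of the 7 earlier levels on the log2 scale, and it is given ± its standard error (1 array against 7). The test takes the spread of the 7 earlier times as its error and assumes that the single 24 h array varies like them. The p-values therefore measure the spread between times, not between independent cultures.

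The earlier arrays were closer to each other. Against the mean of the 6 arrays of 0 to 4 h, between 0 and 7 genes differed by at least 2-fold on any of those arrays, 171 at 8 h and 2191 at 24 h. Each of the 6 is part of that mean, and the 8 h and 24 h arrays are not. Against the 0 min array alone, the other arrays up to 4 h had 0 to 31 such genes. By that measure 8 h had 282 and 24 h had 2225. The 60 min array stood a little apart. On it 2919 genes lay outside the range of the other 0 to 4 h arrays, against 1361 to 1863 on each of the others. The changes at 24 h went with the level of a gene. When genes were split into 5 bins by their mean level over the 8 arrays, the median change at 24 h was 0.51 in the dimmest bin and -0.29 in the brightest. Over 5 bins of coding length the medians lay between -0.072 and 0.18. A bound of 6.50, the 95th percentile of the other-species probe sets, marks dim genes. 43 genes lay under it on all 7 earlier arrays and above it at 24 h, and 69 did the reverse.

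Part of the movement was under way at 8 h. Against the 6 arrays of 0 to 4 h, 687 genes (12.6%) were called higher and 827 (15.2%) lower at 8 h, and by at least 2-fold 103 (1.89%) and 57 (1.05%). When single arrays were left out, the total of 1514 genes called at 8 h ranged from 1066 to 2024, the highest without the 60 min array. From 8 h to 24 h, tested directly, 2006 genes (36.8%) were called higher and 1935 (35.5%) lower, and by at least 2-fold 1061 (19.5%) and 1054 (19.3%). Of the 1083 genes at least 2-fold higher at 24 h, 240 (22.2%) were called higher already at 8 h and 112 were called lower. Of the 1076 that were at least 2-fold lower at 24 h, 228 (21.2%) were called lower at 8 h and 53 higher. Both comparisons use the 0 to 4 h arrays, and the 8 h array is part of the reference at 24 h, so these shares describe the genes and are not independent.

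**Figure D1:**
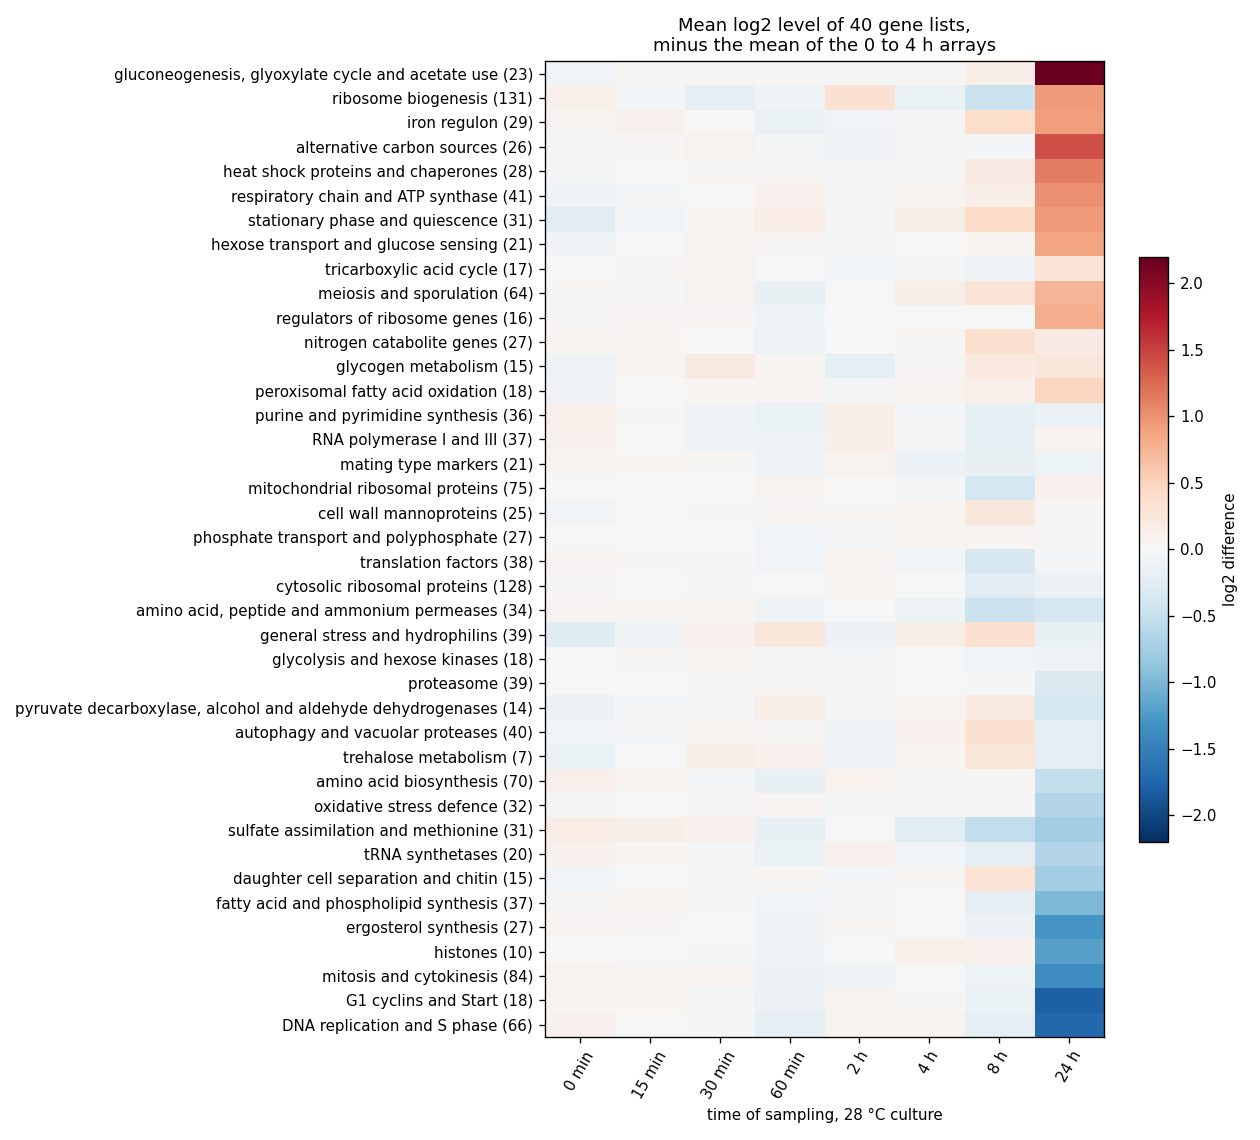
Colour shows the mean log2 level of each of 40 gene lists (number of measured genes in brackets) at each sampling time, minus the mean of the 6 arrays of 0 to 4 h, with 1 array per time. The 24 h column holds the strongest colours, with gluconeogenesis genes highest and DNA replication and G1 genes lowest, and the 8 h column shows paler shifts.

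The 12 largest rises ran from 5.56 to 7.28 on the log2 scale, each at an adjusted p no higher than 0.000191, and several are genes of carbon use. JEN1, the lactate and pyruvate permease, lay between 7.63 and 8.12 (median 7.79) on the earlier arrays and at 14.01 at 24 h, a rise of 6.20 ± 0.17 (adjusted p = 3.15e-08). MAL32, a maltase, ranged from 7.40 to 7.58 up to 8 h, with a median of 7.56, and stood at 13.87 at 24 h, so that it rose by 6.34 ± 0.095 (adjusted p = 2.37e-09). ATO2, of a family of acetate and ammonia transporters, read 8.15 to 8.82 before 24 h (median 8.43) and 14.01 on the last array, higher by 5.56 ± 0.20 (adjusted p = 9.26e-08). On the 7 earlier arrays each of these genes kept within a band narrower than 1 log2 unit, and the 24 h value stood clear of it. REG2, a glucose-linked regulatory subunit of the Glc7 phosphatase, rose by 5.61 ± 0.10, and MRK1, a glycogen synthase kinase 3 homologue, by 5.83 ± 0.15. DSF1, a putative mannitol dehydrogenase, rose by 5.96 ± 0.27, and YNR071C, a putative sugar epimerase, by 5.98 ± 0.22. YIG1, which is linked to glycerol synthesis, rose by 5.69 ± 0.18. The probe sets of MAL32 and DSF1 match several transcripts, so these genes are less certain.

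The remaining 4 of the 12 include genes with little annotation and a membrane stress protein. For PRM7, a pheromone-regulated membrane protein, the 7 earlier levels ran from 6.28 to 6.77 around a median of 6.60, and the last was 13.88, and the rise was 7.28 ± 0.17 (adjusted p = 2.17e-08). YMR244W lay between 6.38 and 7.72 (median 6.49) on the earlier arrays and at 13.82 at 24 h, a rise of 7.13 ± 0.43 (adjusted p = 9.53e-07). YOR338W ranged from 7.14 to 7.75 up to 8 h, with a median of 7.26, and stood at 14.14 at 24 h, so that it rose by 6.79 ± 0.21 (adjusted p = 4.66e-08). YMR244W lay under the dim bound on 4 of the earlier arrays and PRM7 on 1. HSP30, a plasma membrane heat shock protein, had its highest earlier value, 11.06, at 8 h, while the other 6 earlier arrays ended at 9.03. At 24 h it reached 14.78, a rise of 5.73 ± 0.81 (adjusted p = 0.000191).

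The 12 largest falls ran from 4.46 to 5.76 on the log2 scale, at adjusted p-values up to 6.86e-05, and most are genes of the division cycle. RNR1, the large subunit of ribonucleotide reductase, read 12.40 to 13.003 before 24 h (median 12.83) and 6.96 on the last array, a difference of -5.76 ± 0.22 (adjusted p = 1.02e-07). For POL30, the sliding clamp of DNA replication, the 7 earlier levels ran from 12.35 to 12.86 around a median of 12.71, and the last was 7.57, and it fell by 5.06 ± 0.21 (adjusted p = 1.52e-07). GAP1, the general amino acid permease, lay between 13.92 and 14.09 (median 13.98) on the earlier arrays and at 9.35 at 24 h, a change of -4.64 ± 0.088 (adjusted p = 6.33e-09). In these 3 genes the earlier arrays lay together, and the 24 h array alone was low. CDC21 (thymidylate synthase), PCL1 (a G1 cyclin), ACM1 (an inhibitor of the anaphase-promoting complex), YHP1 (a repressor of early G1 genes) and HST3 (a histone deacetylase) fell under the dim bound at 24 h. Counted to that bound, CDC21 was at least 37.2-fold lower, PCL1 28.1-fold, YHP1 20.8-fold, ACM1 19.8-fold and HST3 16.3-fold. YOX1, a second repressor of that kind, fell by 4.49 ± 0.24. UTR2, a cell wall chitin transglycosylase, fell by 5.04 ± 0.61, TOS6, a wall protein, by 4.55 ± 0.24, and ERP2, a protein of transport vesicles, by 4.46 ± 0.11. UTR2 was already at 10.48 at 8 h, where the 6 arrays before ended at 11.58 or higher.

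**Figure D2:**
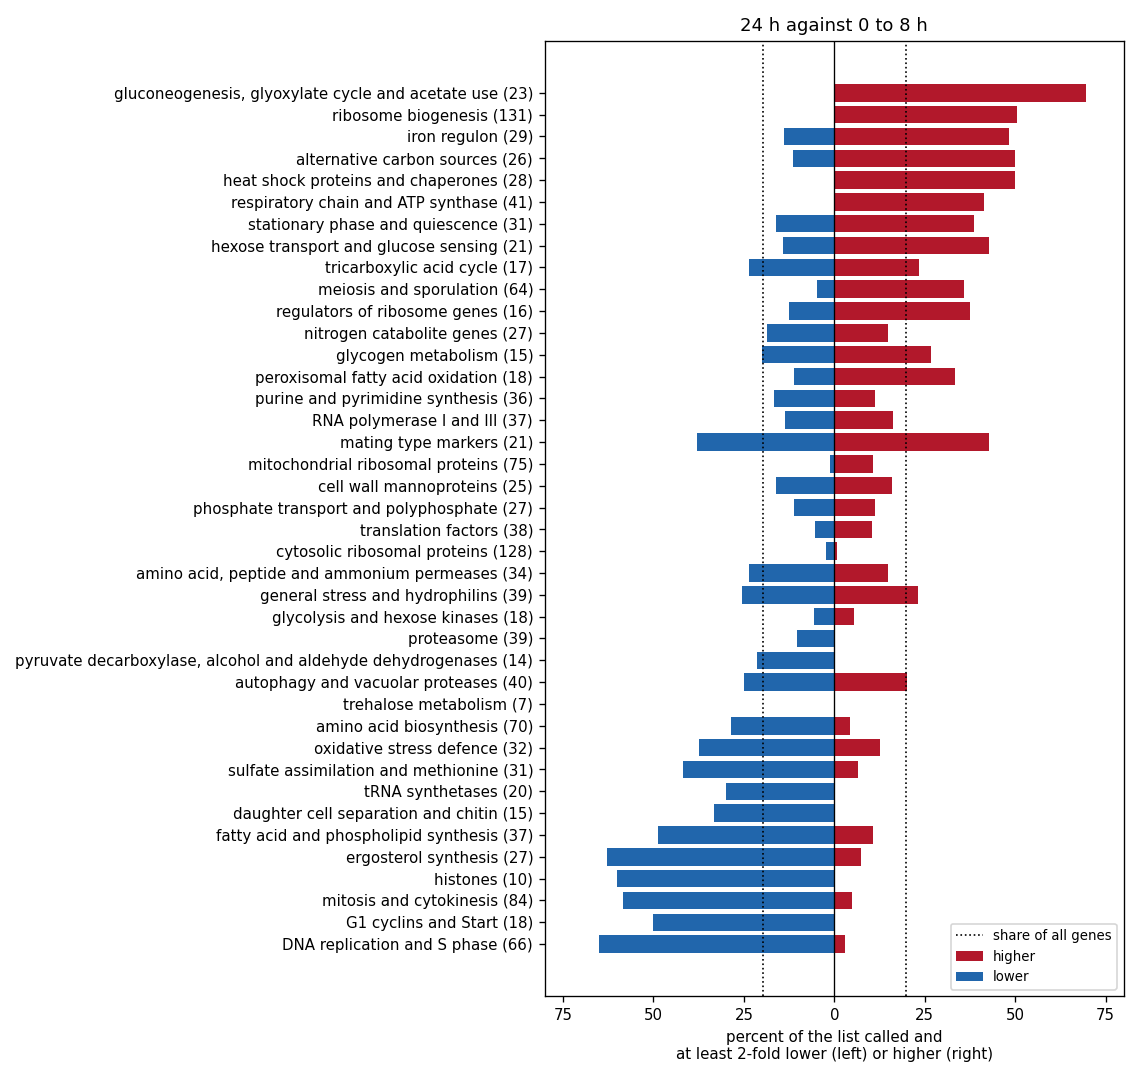
Bars give the percent of each list called and at least 2-fold higher (right) or lower (left) at 24 h against the 7 earlier arrays, and dotted lines give the same shares of all 5449 genes, 19.9% and 19.7%. Gluconeogenesis genes extend farthest to the right and DNA replication genes farthest to the left, and the lists are ordered by median change.

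Of the 40 lists, that of gluconeogenesis held the highest share of genes that rose by at least 2-fold. Of the 23 measured genes of gluconeogenesis, the glyoxylate cycle and acetate use, 19 were called higher and 1, MDH2, lower. 16 (69.6%) rose by at least 2-fold, against 19.9% of all genes, and the median change was 1.89, against 0.003. CAT8, the activator of gluconeogenic genes, ranged from 7.52 to 8.10 up to 8 h, with a median of 7.77, and stood at 12.57 at 24 h, so that it rose by 4.72 ± 0.21 (adjusted p = 2.25e-07). PCK1, phosphoenolpyruvate carboxykinase, read 8.75 to 10.20 before 24 h (median 8.85) and 13.23 on the last array, higher by 4.14 ± 0.46 (adjusted p = 4.11e-05). For FBP1, fructose-1,6-bisphosphatase, the 7 earlier levels ran from 6.68 to 7.04 around a median of 6.93, and the last was 8.94, and the rise was 2.05 ± 0.13 (adjusted p = 1.17e-06). The PCK1 value at 8 h was the highest of the earlier ones, a rise of 1.30 ± 0.14 (adjusted p = 0.00131) over 0 to 4 h, whereas FBP1 and CAT8 lay inside their 0 to 4 h range at 8 h. ICL1, isocitrate lyase, the first step of the glyoxylate cycle, rose less, by 0.80 ± 0.15 (adjusted p = 0.00109), from between 9.27 and 9.68 (median 9.37) to 10.23.

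Genes for other sugars rose as well. Of 26 measured genes for alternative carbon sources, 18 were called higher and 5 lower, 13 (50%) and 3 (11.5%) of them by at least 2-fold, with a median of 0.99. The lower ones were SNF4, GAL10, GAL7, SNF1 and DLD2, among them genes of galactose use and of the Snf1 kinase. SUC2, the secreted invertase, lay between 10.40 and 11.14 (median 10.94) on the earlier arrays and at 14.75 at 24 h, a rise of 3.88 ± 0.23 (adjusted p = 9.66e-07). MAL33, a maltose activator, rose by 4.91 ± 0.18 and MAL32, its target enzyme in the maltose pathway, by 6.34 ± 0.095. SNF4, the activating subunit of the Snf1 kinase, changed by -1.40 ± 0.14 and SNF1 itself by -0.50 ± 0.12 (adjusted p = 2.24e-05 and 0.00421).

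Hexose transporters changed in both directions. Of 21 measured genes for hexose transport and glucose sensing, 13 were called higher and 4 lower, and 9 (42.9%) rose by at least 2-fold. The lower ones were HXT1, STD1, HXT3 and GRR1. The median change of the list was 0.68, and 0.33 when dim genes were left out. HXT1, the low-affinity hexose transporter used at high glucose, ranged from 12.93 to 13.26 up to 8 h, with a median of 13.15, and stood at 9.99 at 24 h, so that it fell by 3.14 ± 0.12 (adjusted p = 1.03e-07). HXT3, another low-affinity transporter, read 14.05 to 14.16 before 24 h (median 14.11) and 12.88 on the last array, a difference of -1.22 ± 0.082 (adjusted p = 1.83e-06). Both fell clear of their earlier ranges, which were narrow. For HXT2, a transporter induced at low glucose, the 7 earlier levels ran from 8.97 to 11.01 around a median of 10.40, and the last was 13.67, and the rise was 3.37 ± 0.60 (adjusted p = 0.000855). HXT2 had dipped at 8 h to 8.97, a change of -1.55 ± 0.31 (adjusted p = 0.0119) from 0 to 4 h, so its level first fell and then rose. MTH1, a repressor of hexose transporter genes that is active without glucose, lay between 8.49 and 9.20 (median 8.75) on the earlier arrays and at 13.25 at 24 h, a rise of 4.44 ± 0.27 (adjusted p = 1e-06). HXT13 lay under the dim bound on all 7 earlier arrays and at 10.52 at 24 h, at least 16.2-fold higher (adjusted p = 8.38e-08), and its probe set can cross-hybridise. HXT7, a high-affinity transporter, ranged from 12.75 to 13.51 up to 8 h, with a median of 13.04, and stood at 13.85 at 24 h, so that it rose by 0.77 ± 0.28 (adjusted p = 0.0321). The call of HXT7 was lost without the 4 h array (adjusted p = 0.0512), and its probe set matches several transcripts.

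**Figure D3:**
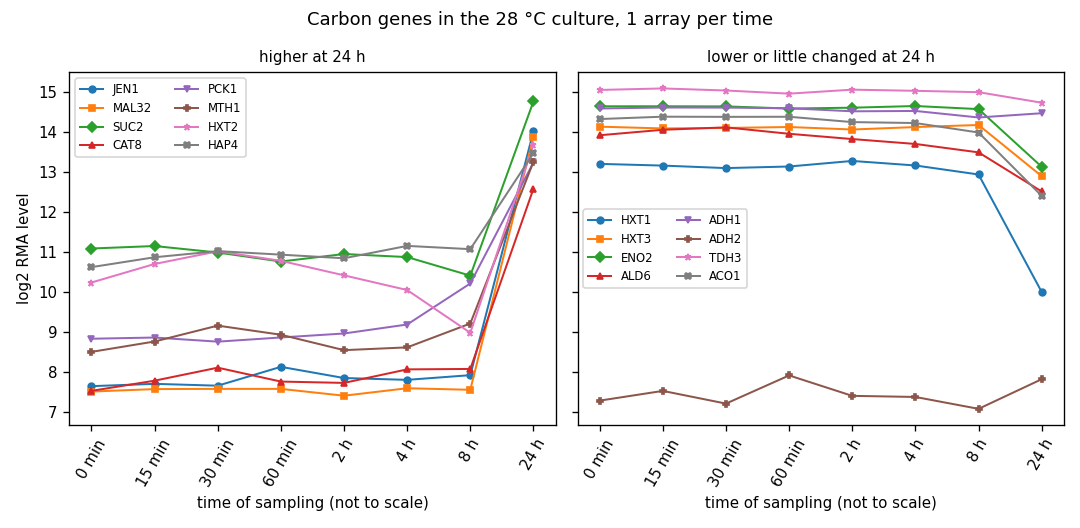
Log2 RMA levels of 16 carbon genes at the 8 sampling times of the 28 °C culture, 1 array per time, with times evenly spaced and not to scale. The 8 genes in the left panel rise at 24 h to 12.57 or more. In the right panel HXT1 shows the deepest drop, and ADH1 and ADH2 were not called.

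Respiration genes rose broadly. Of 41 measured genes of the respiratory chain and ATP synthase, 35 were called higher and 0 lower, 17 (41.5%) by at least 2-fold, with a median of 0.93. HAP4, the activating subunit of the Hap complex that drives respiration genes, read 10.61 to 11.14 before 24 h (median 10.92) and 13.46 on the last array, higher by 2.54 ± 0.17 (adjusted p = 2e-06). For CYC7, a minor isoform of cytochrome c, the 7 earlier levels ran from 10.39 to 11.68 around a median of 10.59, and the last was 13.72, and the rise was 2.94 ± 0.44 (adjusted p = 0.000277). CYC7 also belongs to the stress list, and its highest earlier value was that at 60 min. The tricarboxylic acid cycle was divided. Each of its 17 genes was called, 10 higher and 7 lower, by at least 2-fold CIT3, SDH1, SDH2 and KGD1 on one side and ACO1, LSC2, LSC1 and IDH1 on the other. ACO1, aconitase, lay between 13.98 and 14.37 (median 14.31) on the earlier arrays and at 12.39 at 24 h, a change of -1.87 ± 0.15 (adjusted p = 4.66e-06). CIT3, a methylcitrate synthase, rose by 4.02 ± 0.14 and CIT1, the main mitochondrial citrate synthase, by 0.83 ± 0.12.

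Few glycolysis genes moved by 2-fold. Of 18 measured genes of glycolysis, 4 were called higher (PFK27, PYK2, HXK1 and HXK2) and 8 lower, and by 2-fold or more PFK27 alone rose and ENO2 alone fell. ENO2, the main enolase on glucose, ranged from 14.56 to 14.64 up to 8 h, with a median of 14.63, and stood at 13.12 at 24 h, so that it fell by 1.49 ± 0.080 (adjusted p = 5.73e-07). PFK27, which makes the activator fructose-2,6-bisphosphate, changed by 2.11 ± 0.32, after a low value at 8 h. TDH3, glyceraldehyde-3-phosphate dehydrogenase, changed by -0.30 ± 0.085 and HXK2, the hexokinase that takes part in glucose repression, by 0.53 ± 0.15. Among 14 genes of pyruvate decarboxylase, alcohol and aldehyde dehydrogenases, 6 were called lower and 1, ADH5, higher. ALD3 changed by -2.44 ± 0.53 and ALD6, a cytosolic acetaldehyde dehydrogenase, by -1.35 ± 0.21, and PDC1 was also at least 2-fold lower. ADH1, the alcohol dehydrogenase that makes ethanol, read 14.35 to 14.60 before 24 h (median 14.58) and 14.46 on the last array, a difference of -0.075 ± 0.11 that was not called (adjusted p = 0.5579). For ADH2, the alcohol dehydrogenase that uses ethanol, the 7 earlier levels ran from 7.07 to 7.90 around a median of 7.36, and the last was 7.81, a difference of 0.42 ± 0.25 that was not called (adjusted p = 0.1619). Without the 60 min array ADH2 was called, at 0.51 (adjusted p = 0.022). Of 18 genes of peroxisomal fatty acid oxidation, 8 were called higher and 4 lower (PEX11, DCI1, ANT1 and TES1), led by IDP3, the peroxisomal isocitrate dehydrogenase, at 3.60 ± 0.12 and FAA2, an acyl-CoA synthetase, at 2.04 ± 0.11.

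Genes of the reserve carbohydrates were called in both directions. In the trehalose list, 4 of 7 were called lower, and these are the 4 subunits of the synthase complex (TPS3, TPS2, TSL1 and TPS1), while the 2 called higher, NTH1 and NTH2, are trehalases that break the sugar down. None of the 7 reached 2-fold. TPS1 changed by -0.43 ± 0.11, TPS2 by -0.90 ± 0.16, TPS3 by -0.99 ± 0.099, NTH1 by 0.65 ± 0.15 and NTH2 by 0.47 ± 0.13. Of 15 glycogen genes, 5 were called higher (GAC1, IGD1, PIG2, GLG1 and SGA1) and 4 lower (PGM1, GPH1, UGP1 and GSY2), neither share (33.3% and 26.7%) above the 35.5% of all genes, and genes of synthesis and of breakdown stood on both sides. GAC1, a subunit that directs the Glc7 phosphatase to glycogen synthase, lay between 8.41 and 9.45 (median 8.75) on the earlier arrays and at 13.12 at 24 h, a rise of 4.29 ± 0.31 (adjusted p = 2.84e-06). GSY2, the main glycogen synthase, changed by -0.69 ± 0.15 and PGM1, a minor phosphoglucomutase, by -3.04 ± 0.25.

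Chaperones rose, and the general stress genes were split. Of 28 measured heat shock proteins and chaperones, 21 were called higher and 2 (SSA2 and HSC82) lower, 14 (50%) higher by at least 2-fold, with a median of 0.97. APJ1, a DnaJ-type cochaperone, ranged from 9.24 to 9.57 up to 8 h, with a median of 9.40, and stood at 13.45 at 24 h, so that it rose by 4.04 ± 0.12 (adjusted p = 3.41e-08). SSA3, a stress-inducible Hsp70, read 9.17 to 10.53 before 24 h (median 9.57) and 11.29 on the last array, higher by 1.67 ± 0.41 (adjusted p = 0.0054). SSA3 had its highest earlier value at 8 h. For HSP26, a small heat shock protein, the 7 earlier levels ran from 13.63 to 14.45 around a median of 13.80, and the last was 14.21, a difference of 0.32 ± 0.27 that was not called (adjusted p = 0.3153). Its highest value was that at 8 h, and against 0 to 4 h alone it was called, at 0.41 (adjusted p = 0.0389). Of 39 general stress and hydrophilin genes, 10 were called higher and 16 lower, 9 (23.1%) and 10 (25.6%) by at least 2-fold, shares not far from those of all genes, with a median of -0.22. HSP12, a membrane-associated stress protein, lay between 14.59 and 14.78 (median 14.66) on the earlier arrays and at 14.06 at 24 h, a change of -0.61 ± 0.095 (adjusted p = 0.000344). CTT1, cytosolic catalase, ranged from 13.44 to 14.04 up to 8 h, with a median of 13.81, and stood at 11.35 at 24 h, so that it fell by 2.40 ± 0.20 (adjusted p = 7.6e-06). At 24 h both lay under all of their earlier values. MOH1, a gene of the same list, went the other way, with its highest earlier value at 8 h, a rise of 2.88 ± 0.68 (adjusted p = 0.00426).

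Of 31 stationary phase and quiescence genes, 18 were called higher and 6 lower, 12 (38.7%) and 5 (16.1%) of them by at least 2-fold, with a median of 0.88. SNZ1, a vitamin B6 synthesis gene that marks stationary phase, read 12.33 to 13.49 before 24 h (median 12.69) and 14.39 on the last array, higher by 1.66 ± 0.34 (adjusted p = 0.002). RGI2, a respiratory growth gene, lay under the dim bound on the 7 earlier arrays and at 9.69 at 24 h, at least 9.1-fold higher (adjusted p = 5.13e-08). The 5 that were at least 2-fold lower, SUR7, FMP45, ECM4, PUN1 and HBT1, include the plasma membrane eisosome proteins SUR7, FMP45 and PUN1. Of 32 oxidative stress genes, 18 were called lower, 12 (37.5%) by at least 2-fold, and 4 (GPX1, GTT2, YAP1 and GRX6) higher. The glutaredoxin GRX8 changed by -3.68 ± 0.16. For TRX1, a thioredoxin, the 7 earlier levels ran from 13.64 to 13.79 around a median of 13.73, and the last was 10.78, and it fell by 2.93 ± 0.087 (adjusted p = 3.62e-08). YAP1, the activator of oxidative stress genes, rose by 1.24 ± 0.10.

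Genes of protein breakdown were called in both directions at 24 h. Of 40 autophagy and vacuolar protease genes, 14 were called higher and 20 lower, 8 and 10 by at least 2-fold. The share called higher (35%) and those at least 2-fold higher (20%) and lower (25%) were near the 35.5%, 19.9% and 19.7% of all genes, and 50% were called lower. At 8 h 15 (37.5%) had been called higher and 1, ATG15, lower, against 12.6% and 15.2% of all genes at that time. The vacuolar aminopeptidase APE1 changed by -3.98 ± 0.10. CPS1, a vacuolar carboxypeptidase, lay between 13.12 and 13.53 (median 13.19) on the earlier arrays and at 9.36 at 24 h, a change of -3.88 ± 0.15 (adjusted p = 1.03e-07). CPS1 had been slightly higher at 8 h, by 0.34 ± 0.091. Of 39 proteasome genes, 19 (48.7%) were called lower, against 35.5% of all genes, and 5 (RPN4, RPN5, RPN11, RPT2 and RPN14) higher. Their changes were mostly small, with a median of -0.25. By at least 2-fold 4 (PRE6, PUP1, POC4 and IRC25) were lower, a share of 10.3% that is under the 19.7% of all genes. The core subunit PRE6 changed by -2.01 ± 0.080 and PUP1 by -1.74 ± 0.15, and RPN4, the activator of proteasome genes, rose by 0.73 ± 0.12.

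Cell cycle genes fell. The lists of mitosis and of DNA replication, both long, held the highest numbers of genes called lower of the 40 lists, whereas by share ergosterol genes (88.9%) and histones (80%) were above mitosis (78.6%) and DNA replication (77.3%). Of 66 DNA replication and S phase genes, 51 were called lower and 7 higher, 43 (65.2%) lower by at least 2-fold and 2 (RAD54 and ORC6) higher by that much, with a median of -1.69. Of 84 mitosis and cytokinesis genes, 66 were called lower and 10 higher, 49 (58.3%) lower by at least 2-fold, with a median of -1.42, and those at least 2-fold higher were BUD3, ASE1, FKH2 and NBL1. In the G1 group 12 of 18 were called lower and 2 (BCK2 and CLN3) higher, with a median of -1.60. BCK2 and CLN3, both upstream activators of the G1 program, rose by 0.88 ± 0.11 and 0.44 ± 0.093.

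CLN2, a G1 cyclin that commits the cell to division, ranged from 10.55 to 11.40 up to 8 h, with a median of 11.20, and stood at 7.998 at 24 h, so that it fell by 3.09 ± 0.27 (adjusted p = 8.33e-06). CLB6, an S phase cyclin, lay between 9.81 and 10.56 (median 10.32) earlier and under the dim bound at 24 h, at least 13.3-fold lower. CLB1, a mitotic cyclin, read 11.63 to 12.12 before 24 h (median 11.87) and 7.61 on the last array, a difference of -4.26 ± 0.17 (adjusted p = 1.27e-07). CLB2, its close relative, was at least 10.2-fold lower, from between 9.41 and 10.27 (median 9.81) to 5.78. The earlier arrays of these cyclins spanned at most 0.87 log2 units, and the 24 h array lay under all of them. CHS2, the chitin synthase of the septum, changed by -2.68 ± 0.23 (adjusted p = 7.15e-06).

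Histone genes fell in part. Of 10 histone genes, 8 were called lower and 0 higher, 6 (60%) by at least 2-fold, with a median of -1.25. For HTB2, a histone H2B, the 7 earlier levels ran from 13.60 to 13.80 around a median of 13.76, and the last was 11.78, and it fell by 1.96 ± 0.099 (adjusted p = 4.04e-07). HTA1, a histone H2A, lay between 13.83 and 14.16 (median 14.06) on the earlier arrays and at 13.88 at 24 h, a difference of -0.16 ± 0.12 that was not called (adjusted p = 0.2457). The linker histone HHO1 changed by -2.61 ± 0.21. Histone genes come in near-identical pairs, so the levels of single copies are less certain. Of 15 genes of daughter cell separation and chitin, 10 were called lower and 2 (DSE3 and CHS1) higher, among them the chitin synthase CHS3, which changed by -2.16 ± 0.11. ACT1, actin, often used as a reference gene, changed by -0.66 ± 0.092 (adjusted p = 0.000169), from between 14.33 and 14.50 (median 14.47) to 13.77.

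**Figure D4:**
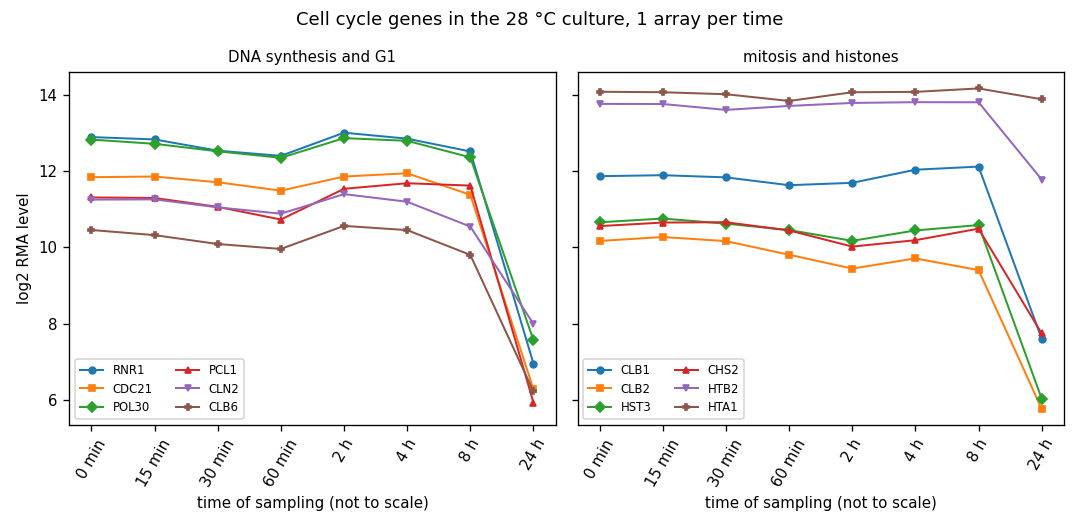
Log2 RMA levels of 12 cell cycle and histone genes at the 8 sampling times of the 28 °C culture, 1 array per time, with times evenly spaced and not to scale. All but HTA1 drop at 24 h. CDC21, PCL1, CLB6, CLB2 and HST3 end under the dim bound of 6.50, and RNR1 ends above it at 6.96.

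Ribosome biogenesis genes were high at 24 h. These 131 genes encode the factors that process ribosomal RNA and assemble the subunits, and 94 were called higher and 4 (RRP1, RRP3, NHP2 and GAR1) lower. 66 (50.4%) rose by at least 2-fold and none fell by that much, with a median of 1.03. At 8 h 44 (33.6%) had been called lower and 0 higher, against 15.2% and 12.6% of all genes, with a median of -0.44. From 8 h to 24 h, tested as a difference in itself, 114 rose and 0 fell, 97 of them by at least 2-fold, with a median of 1.44. NSR1, a nucleolar protein of ribosomal RNA processing, ranged from 11.19 to 12.49 up to 8 h, with a median of 11.97, and stood at 13.60 at 24 h, so that it rose by 1.70 ± 0.37 (adjusted p = 0.0029). At 8 h it stood at 11.19, the lowest of the earlier values. NOP19, a small subunit processome factor, read 8.62 to 9.03 before 24 h (median 8.71) and 11.91 on the last array, higher by 3.14 ± 0.16 (adjusted p = 4.09e-07). For RIO1, a kinase of small subunit maturation, the 7 earlier levels ran from 9.22 to 9.85 around a median of 9.50, and the last was 12.43, and the rise was 2.88 ± 0.24 (adjusted p = 7.11e-06). The 2 ribosomal RNA probe sets were also higher at 24 h, as given above, and their part in these counts was not tested.

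The cytosolic ribosomal proteins changed less at 24 h. Of 128, 4 (RPS14B, RPL22B, RPS27A and RPS20) were called higher and 14 lower, and the median was -0.073. At 8 h 47 (36.7%) of them had been called lower and none higher, against 15.2% and 12.6% of all genes. Their median change at 8 h was -0.23. After 8 h their median change was 0.10. Of them 24 (18.8%) were called higher and 7 (5.47%) lower from 8 h to 24 h, against 36.8% and 35.5% of all genes. RPL3, a protein of the large subunit, lay between 14.08 and 14.34 (median 14.29) on the earlier arrays and at 14.07 at 24 h, a difference of -0.17 ± 0.12 that was not called (adjusted p = 0.2258). RPS28B changed by -1.85 ± 0.13. RPL18B changed by -1.44 ± 0.25 as an average of its probe sets, but by -0.08 on the brightest, so its probe sets disagree. Most ribosomal proteins have a paralog, and probes can share signal between copies. Of 16 regulators of these genes, 10 were called higher and 4 (TOR1, ABF1, KOG1 and TOR2) lower. TOD6, a repressor of ribosome biogenesis genes, ranged from 7.95 to 8.94 up to 8 h, with a median of 8.31, and stood at 11.89 at 24 h, so that it rose by 3.60 ± 0.30 (adjusted p = 6.51e-06). IFH1, an activator of ribosomal protein genes, read 9.15 to 9.64 before 24 h (median 9.55) and 12.93 on the last array, higher by 3.47 ± 0.18 (adjusted p = 4.63e-07). A repressor and an activator of ribosome genes thus both stood far above their earlier ranges.

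The 37 genes of RNA polymerases I and III had a median change of 0.056, against 0.003 over all genes. They ranged from -1.74 to 2.77, with the polymerase III subunit RPC37 at 2.77 ± 0.23 and RRN10, a polymerase I initiation factor, at 1.95 ± 0.12. The 38 translation factors had a median change of -0.030, and those called higher were ANB1, DED1, DBP1, TIF4631 and GCD2. For ANB1, the form of eIF5A known from low oxygen, the 7 earlier levels ran from 8.39 to 8.75 around a median of 8.61, and the last was 12.16, and the rise was 3.57 ± 0.13 (adjusted p = 9.84e-08). TEF4, an elongation factor subunit, changed by -2.22 ± 0.34 and had been low at 8 h (-0.98 ± 0.094). Of 20 tRNA synthetases, 13 were called lower and 2 (KRS1 and ALA1) higher, with TYS1 at -2.09 ± 0.12 and GUS1 at -1.57 ± 0.096. Mitochondrial ribosomal proteins had fallen at 8 h, with 50 of 75 (66.7%) called lower, against 15.2% of all genes, and a median of -0.41. At 24 h their median change was 0.041, against 0.003 over all genes. RSM22 stood at 1.90 ± 0.13 and MRPL24 at 1.73 ± 0.17.

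Lipid synthesis genes fell. All 27 measured ergosterol genes were called, 24 lower and 3 (ECM22, UPC2 and IDI1) higher, 17 (63%) lower by at least 2-fold, with a median of -1.18. ERG13, HMG-CoA synthase, lay between 11.82 and 12.39 (median 12.24) on the earlier arrays and at 8.39 at 24 h, a change of -3.79 ± 0.19 (adjusted p = 4.22e-07). ERG5, a sterol desaturase, ranged from 12.23 to 12.61 up to 8 h, with a median of 12.52, and stood at 9.40 at 24 h, so that it fell by 3.04 ± 0.15 (adjusted p = 3.86e-07). ECM22 and UPC2, the activators of sterol genes, rose by 2.29 ± 0.30 and 2.01 ± 0.16. Of 37 genes of fatty acid and phospholipid synthesis, 22 were called lower and 12 higher, 18 (48.6%) lower by at least 2-fold, with a median of -0.93. ELO1, a fatty acid elongase, read 13.07 to 13.48 before 24 h (median 13.35) and 9.38 on the last array, a difference of -3.94 ± 0.15 (adjusted p = 1.02e-07). ELO2, a second elongase, changed by -4.27 ± 0.38 and had been low at 8 h (-1.06 ± 0.13). Those at least 2-fold higher were INO2, INO1, SPT23 and ARE1. INO2 activates phospholipid genes and INO1 makes inositol phosphate, and they rose by 1.72 ± 0.27 and 1.57 ± 0.27.

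Of 70 amino acid biosynthesis genes, 36 were called lower and 13 higher, with a median of -0.52. Only GDH3, GLY1 and ARO3 rose by at least 2-fold, against 20 (28.6%) that fell by that much. For GDH3, a glutamate dehydrogenase, the 7 earlier levels ran from 9.47 to 9.90 around a median of 9.59, and the last was 13.58, and the rise was 3.97 ± 0.15 (adjusted p = 1.12e-07). LYS9, an enzyme of lysine synthesis, lay between 13.56 and 14.08 (median 13.87) on the earlier arrays and at 10.57 at 24 h, a change of -3.27 ± 0.16 (adjusted p = 3.15e-07). In the sulfate and methionine group 13 of 31 were called lower, all by at least 2-fold (41.9%), and 5 (SUL1, STR2, MET31, MET4 and MET30) higher. At 8 h 18 (58.1%) had been called lower and 2 higher, against 15.2% and 12.6% of all genes, with a median of -0.55. MET3, ATP sulfurylase, ranged from 12.58 to 13.56 up to 8 h, with a median of 13.35, and stood at 9.11 at 24 h, so that it fell by 4.16 ± 0.31 (adjusted p = 3.61e-06). SAM2, an S-adenosylmethionine synthetase, changed by -3.14 ± 0.45. Of 36 purine and pyrimidine genes, 12 were called higher and 13 lower, shares close to those of all genes, with the adenine deaminase AAH1 at 3.29 ± 0.46 and IMD2, an inosine monophosphate dehydrogenase, at -3.05 ± 0.26. The IMD2 probe set can cross-hybridise with its close relatives.

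Nutrient uptake genes changed in both directions. Of 34 permeases for amino acids, peptides and ammonium, 10 were called higher and 10 lower, neither share above that of all genes, and those at least 2-fold higher were HIP1, AGP2, SSY1, AVT3 and LYP1. DUR3, the urea and polyamine transporter, changed by -2.65 ± 0.32. Of 27 nitrogen catabolite genes, 9 were called higher and 7 lower, shares not above those of all genes. PUT1, proline oxidase, read 10.39 to 10.68 before 24 h (median 10.49) and 14.07 on the last array, higher by 3.56 ± 0.11 (adjusted p = 5.3e-08). Of 27 phosphate genes, 8 were called higher and 10 lower, again shares near those of all genes. For PHO84, the high-affinity phosphate transporter, the 7 earlier levels ran from 6.79 to 7.09 around a median of 7.003, and the last was 8.90, and the rise was 1.92 ± 0.12 (adjusted p = 1.32e-06). PHO89, a second phosphate transporter, rose by 2.08 ± 0.12, and PHO3, an acid phosphatase, changed by -3.16 ± 0.25. In the iron regulon 17 of 29 were called higher and 6 lower, 14 (48.3%) and 4 (13.8%) by at least 2-fold, with a median of 1.005. FRE5, a putative ferric reductase, lay under the dim bound on the 7 earlier arrays and was at least 9.48-fold higher at 24 h. AFT2, an activator of iron genes, lay between 8.10 and 8.37 (median 8.25) on the earlier arrays and at 10.94 at 24 h, a rise of 2.70 ± 0.11 (adjusted p = 1.23e-07). The 4 that were at least 2-fold lower, ISU2, SIT1, ATX1 and FTR1, include the siderophore transporter SIT1 and the iron permease FTR1.

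S288C is known as an alpha strain, and the labels give no mating type, so the markers of both mating types were read. Those of alpha cells fell and most of those of a cells rose at 24 h. MF(ALPHA)1, the alpha pheromone gene, stood from 14.17 to 14.25 earlier and 11.84 at 24 h, MF(ALPHA)2 from 12.61 to 14.30 earlier and 10.34 at 24 h, and STE3, the receptor of alpha cells, from 11.97 to 13.03 earlier and 10.97 at 24 h. All 3 fell (adjusted p up to 0.00126). Of the 6 a cell markers, MFA1, MFA2, STE2, STE6 and BAR1 rose and ASG7 was not called (0.048, adjusted p = 0.87). MFA1, an a pheromone gene, stood from 8.33 to 9.10 earlier and 10.34 at 24 h, and STE6, its exporter, from 7.70 to 8.46 earlier and 10.11 at 24 h. The mean of the 3 alpha markers was 12.92 to 13.85 on the earlier arrays and 11.05 at 24 h, and that of the 6 a markers was 7.33 to 7.99 and 8.82. None of the 9 was under the dim bound on any array. At 8 h MF(ALPHA)2 and STE3 had the lowest of their 7 earlier values, and MFA1, MFA2, STE2, STE6 and ASG7 the highest. MF(ALPHA)1 and BAR1 lay inside their 0 to 4 h ranges at 8 h. Over all genes the median change at 24 h was 0.51 in the dimmest of 5 level bins and -0.29 in the brightest. The part of level and of other cells in these values was not tested. The wider mating list of 21 genes had a median change of 0.048, with 10 genes called higher and 8 lower. By at least 2-fold 9 (42.9%) were higher and 8 (38.1%) lower, against 19.9% and 19.7% of all genes. FAR1, the pheromone-induced cell cycle inhibitor, changed by -3.54 ± 0.22 and AGA2, a mating adhesin subunit, by 2.51 ± 0.44.

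Meiosis and sporulation genes, which belong to another cell state, rose in part. They are dim, with a list mean of 7.02 to 7.46 on the earlier arrays and 7.93 at 24 h. Over all genes the median change in the dimmest of 5 level bins was 0.51, near the median of this list. The part of level was not tested for these genes. Of 64, 30 were called higher and 8 lower, 23 (35.9%) and 3 (4.69%) by at least 2-fold, with a median of 0.56. LDS2, a protein of the developing spore, ranged from 7.73 to 8.41 up to 8 h, with a median of 7.90, and stood at 12.35 at 24 h, so that it rose by 4.40 ± 0.21 (adjusted p = 3.09e-07). MND1, a meiotic recombination gene, lay under the dim bound on the 7 earlier arrays and was at least 7.29-fold higher at 24 h. IME1, the inducer of meiosis, stood from 7.80 to 8.03 earlier and 8.99 at 24 h, and DIT1, a spore wall enzyme, from 7.33 to 7.68 earlier and 9.55 at 24 h. The kinase IME2 and the mid-meiosis activator NDT80 were not called, at 0.22 and -0.15 (adjusted p = 0.542 and 0.401). Of the 12 meiosis markers, IME1, DIT1 and DIT2 were called higher and SPO11, HOP1 and SMK1 lower, so the markers did not move one way. Their mean was 7.12 to 7.66 on the earlier arrays and 7.56 at 24 h. DIT2 lay under the dim bound on all 8 arrays and SPO11 on 7. The 25 wall mannoproteins had a median change of 0.034, against 0.003 over all genes. SUC2, FLO11, TIR4 and SPI1 were called and at least 2-fold higher, and CWP1, PIR1, CIS3 and CWP2 lower. SUC2 is counted in this list and among the sugar genes. CWP1, a wall mannoprotein, changed by -3.77 ± 0.47, after a low value at 8 h.

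The 6 highest changes at 8 h, from 2.35 to 2.95, had adjusted p-values up to 0.0258. BNA2, the first enzyme of NAD synthesis from tryptophan, lay between 7.65 and 8.55 (median 7.84) from 0 to 4 h, at 10.36 at 8 h and at 12.89 at 24 h. FMP23, a mitochondrial protein, lay between 8.12 and 8.57 (median 8.36) from 0 to 4 h, at 10.74 at 8 h and at 11.88 at 24 h. Both went on rising after 8 h, by 2.53 ± 0.36 and 1.14 ± 0.20 (adjusted p = 0.000266 and 0.000892). SHH3, a mitochondrial homologue of a succinate dehydrogenase subunit, lay between 7.39 and 9.38 (median 7.85) from 0 to 4 h, at 11.02 at 8 h and at 9.43 at 24 h. FLO1, a flocculin of cell aggregation, lay between 9.77 and 11.51 (median 10.003) from 0 to 4 h, at 12.73 at 8 h and at 11.08 at 24 h. Both had their highest value at 8 h and their next highest earlier value at 4 h, and neither was called at 24 h (0.94 ± 1.15 and 0.38 ± 1.00, adjusted p = 0.4890 and 0.7498). That reference holds the 8 h values of SHH3 and FLO1. With 0 to 60 min as the reference SHH3 stood 1.63 higher and FLO1 1.18 higher at 24 h. Both were called with that reference, though not with 0 to 4 h. SRL4 was under the dim bound up to 4 h, at least 3.83-fold above it at 8 h and at 11.33 at 24 h.

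The 6 lowest changes at 8 h, from -3.29 to -2.16, had adjusted p-values up to 0.0131, and 5 of them are nutrient permeases. BAP3, a branched-chain amino acid permease, lay between 11.16 and 12.22 (median 12.03) from 0 to 4 h, at 8.60 at 8 h and at 12.43 at 24 h. BAP2, its relative, lay between 11.34 and 11.997 (median 11.90) from 0 to 4 h, at 9.10 at 8 h and at 12.60 at 24 h. Both dipped at 8 h and were back above their early values at 24 h, by 3.83 ± 0.43 and 3.49 ± 0.28 over 8 h (adjusted p = 6.09e-05 and 8.71e-06). GNP1, a glutamine permease, lay between 12.70 and 13.17 (median 13.15) from 0 to 4 h, at 10.52 at 8 h and at 11.31 at 24 h. TAT1, a tyrosine and branched-chain permease, lay between 9.47 and 10.51 (median 10.29) from 0 to 4 h, at 8.04 at 8 h and at 9.04 at 24 h. PTR2, the peptide transporter, lay between 8.53 and 10.08 (median 9.96) from 0 to 4 h, at 7.31 at 8 h and at 6.95 at 24 h. GNP1 regained part of the fall, by 0.79 ± 0.22 over 8 h. TAT1 stood 1.01 ± 0.42 above its 8 h value, a difference that was not called, and PTR2 stayed low. PDH1, a methylcitrate dehydratase, lay between 10.69 and 11.55 (median 11.33) from 0 to 4 h, at 8.90 at 8 h and at 12.26 at 24 h. BAP3, BAP2, GNP1, PDH1 and TAT1 were not called at 24 h against 0 to 8 h, a reference that holds their 8 h value. With 0 to 4 h as the reference BAP2, GNP1, PDH1 and TAT1 were called. The call of PTR2 at 24 h (-2.40 ± 0.93, adjusted p = 0.0446) was lost without any 1 of the arrays of 0 min to 2 h (adjusted p from 0.0643 to 0.0701).

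**Figure D5:**
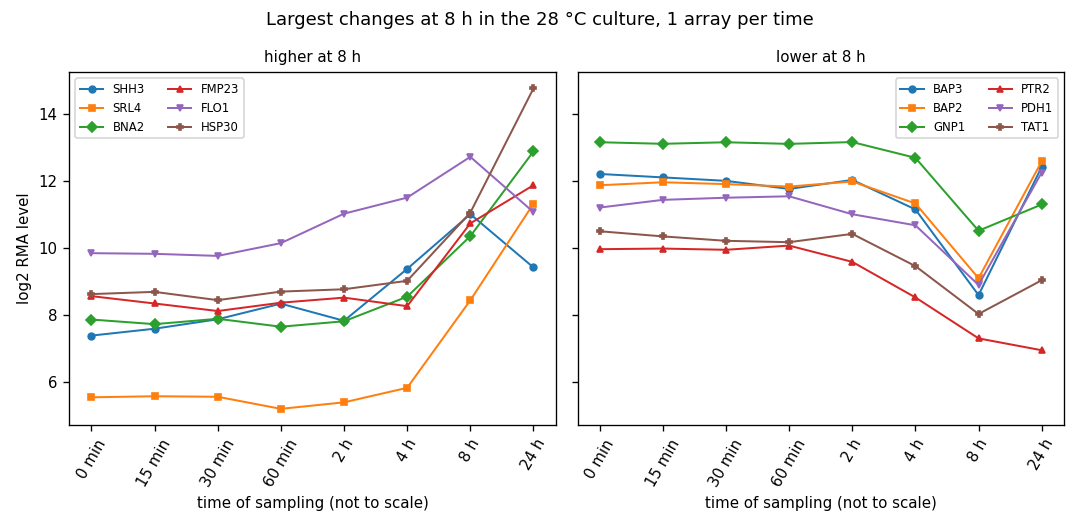
Log2 RMA levels of the 6 genes with the highest (left) and the 6 with the lowest (right) called change at 8 h against 0 to 4 h, 1 array per time, with times evenly spaced and not to scale. SHH3 and FLO1 are highest at 8 h, and their changes after it (-1.59 ± 0.79 and -1.65 ± 0.81) were not called. BAP3, BAP2 and PDH1 dip at 8 h and return by 24 h.

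Some genes were called one way at 8 h and the other way after it. Both comparisons use the single 8 h array, with opposite sign, so an error in that array alone would appear as a reversal. Of those called lower at 8 h and then higher at 24 h against 8 h, the largest rises were PRM7, YKR075C and HXT2. PRM7 lay under the dim bound at 8 h, at 6.28, and close to it from 0 to 4 h, so its 8 h difference is one near background. YKR075C lay between 8.82 and 9.74 (median 9.51) from 0 to 4 h, at 8.09 at 8 h and at 12.82 at 24 h, a rise of 4.73 ± 0.37 after 8 h (adjusted p = 7.63e-06). Of those called higher at 8 h and then lower, the largest falls were VEL1, CPS1 and KAP114 (adjusted p up to 2.51e-06), of which VEL1 and CPS1 changed by -4.47 and -4.17 after 8 h. VEL1 lay between 12.51 and 13.17 (median 12.58) from 0 to 4 h, at 13.57 at 8 h and at 9.10 at 24 h. KAP114, an importin, lay between 9.83 and 10.17 (median 9.95) from 0 to 4 h, at 10.52 at 8 h and at 6.43 at 24 h. Its 24 h value was under the dim bound, which makes the size of its fall and its rank uncertain, and counted to the bound it was at least 11.7-fold lower at 24 h than on the 7 earlier arrays.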

How the data were processed

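Gene levels of the 8 arrays of the unshifted 28 °C series were used. The values are log2 levels that the authors deposited as 1 value per probe set and array, and the submitters' processing notes name RMA as the summary method, with version and joint processing not given in the sources used here. The 1-colour array holds 10928 probe sets, of which 5498 name 1 yeast gene, 1 names several, 1746 belong to other species and 3683 are unlisted and unnamed here. Genes with several probe sets (47) were averaged, leaving 5449. The suffix for several transcripts marks 103 probe sets and that for cross-hybridisation 25. Symbols came from the platform annotation and a RefSeq gene table. Of the members of the 40 lists, 38 found no match.

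No further normalization was applied. The fits used lmFit and eBayes of limma 3.58.1 (R 4.3.3), which were tested on simulated data. The 24 h comparison had 6 residual and 2.70 prior degrees of freedom and a median standard error of 0.15. A fit with 0 to 4 h, 8 h and 24 h as 3 groups gave the other comparisons (5 and 3.36 degrees of freedom, 0.11 and 0.15). P-values were adjusted by Benjamini-Hochberg over all genes and called under 0.05. The number of arrays limits the precision. Levels under the 6.50 bound give folds counted from it.

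The members and lists were chosen with earlier results of these data known. Named genes are the 12 highest and 12 lowest 24 h changes, the 2 largest called changes of each list, the 6 highest and 6 lowest at 8 h, the 3 largest reversals each way and 26 further genes chosen by name. The alternatives tried were a trended robust prior, dim genes left out, renewed quantile normalization, the brightest probe set per gene, a test against 2-fold, other references and single arrays left out. Promoter sequences were not analysed here.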

Additional observations from a re-analysis of the deposited data

Results flagged for a closer look

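Among the 7 arrays of 0 to 8 h, 1 array stood away from the rest for 42 of the quantities read. These quantities were mean levels of the gene lists, levels of named genes and measures of array quality. The value in brackets is the gap from that array to its nearest neighbour divided by the range of all 7, and each is above Dixon’s 95% critical value for 7 samples. Chance alone lists about 5% of such groups of 7. The total of quantities read is not given here, and some named genes also belong to the lists. The 42 can therefore not be set against that share.

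The 8 h array was far above the rest in the mean level of heat shock proteins and chaperones (0.679), autophagy and vacuolar proteases (0.609), daughter cell separation and chitin (0.731), cell wall mannoproteins (0.648) and nitrogen catabolite genes (0.672). It was far below the rest in the mean level of cytosolic ribosomal proteins (0.705), translation factors (0.688), mitochondrial ribosomal proteins (0.770) and amino acid, peptide and ammonium permeases (0.675).

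Among the named genes the 8 h array was far above the rest for YMR244W (0.736), HSP30 (0.779), GAP1 (0.569), DUR3 (0.568), FRE5 (0.686), LDS2 (0.618), AGA2 (0.751), SRL4 (0.806), BNA2 (0.668), FMP23 (0.830), PCK1 (0.705), SNZ1 (0.590) and SSA3 (0.570). It was far below the rest for PFK27 (0.826), ACO1 (0.598), PUP1 (0.703), RPL18B (0.735), TEF4 (0.813), SAM2 (0.621), IMD2 (0.771), ELO2 (0.702), CWP1 (0.645), BAP3 (0.707), BAP2 (0.773), GNP1 (0.823), PDH1 (0.673), TAT1 (0.579) and ADH1 (0.620). HSP30, SRL4, BNA2, FMP23, BAP3, BAP2, GNP1, PDH1 and TAT1 were named for their change at 8 h, so their place here follows from that choice and cannot be read against the share that chance gives. Other arrays stood apart for 3 genes. The 60 min array was low for YIG1 (0.676) and CHS3 (0.630), and the 2 h array was high for TOD6 (0.583).

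The same ratio was 0.893 for the correlation of each array with the mean of the other earlier arrays, which was lowest at 8 h. It was 0.734 for the 3′ minus 5′ difference of SRB4, a control probe set, which was highest at 8 h. The part of this difference in the 8 h results was not tested.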

How the results depend on the processing

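Tested against a 2-fold difference instead of against 0 (limma's treat), the calls dropped from 3869 to 1297 at 24 h against 0 to 8 h, from 1514 to 7 at 8 h against 0 to 4 h, and from 3941 to 1258 at 24 h against 8 h. That test asks for more than 2-fold by construction. The other 33 recomputed counts stayed within 1.5 times. With 0 to 4 h as the reference, which leaves out the 8 h array, 4253 genes were called at 24 h, and with 0 to 60 min 4196. Leaving out 1 of the 6 arrays of 0 to 4 h at a time gave 3730 to 3814 at 24 h, 1066 to 2024 at 8 h and 3837 to 4095 between 8 h and 24 h. Of the list medians, 501 recomputed values stayed within 1 standard deviation of the array spread and 19 did not. For named genes 1684 recomputed values kept their call, 28 lost it, 20 of these under the 2-fold test, and 13 gained it. No direction of a called gene turned. After renewed quantile normalization PTR2 lost its call (-2.36, adjusted p = 0.0506). No paired analysis was possible because the labels carry no replicate numbers and the 24 h group holds 1 array. Limits are the single array per time, the unknown independence of the samples, and signal near background, since changes of dim genes are understated.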

Other observations

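Reading frames that carry no gene name beyond their locus tag had their own distribution at 24 h. Of 499 such genes, 24.6% were called and at least 2-fold higher and 13.2% lower, with a median change of 0.17. Among the 4950 genes with a name the shares were 19.4% and 20.4%, with a median of -0.018. Levels move with this split, since the dimmest of 5 level bins had 36.2% at least 2-fold higher and 11.5% lower, and the brightest 6.79% and 26.3%. The part of level in the split was not tested.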
